A study of Homo sapiens with 6 samples.

Results

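The WNT pathway genes of PANC-1 cells were compared between libraries that received a lentivirus against SHMT2 and libraries that received a null virus. PANC-1 is an established human line from a pancreatic ductal carcinoma, and SHMT2 is the mitochondrial serine hydroxymethyltransferase. Members were taken by symbol: every gene named WNT or FZD with a number, and a fixed list of co-receptors, inhibitors, receptor regulators, scaffold genes and TCF/LEF factors. This gave 58 of the 20036 genes of the table. Of these, 7 had no read in any of the 6 libraries, 16 had reads but too few to test, and 35 were among the 12292 genes that passed the filter on low counts. There were 3 control libraries (null virus) and 3 knockdown libraries (SHMT2 knockdown lentivirus), and no other treatment is named. The sources used here do not give the hairpin sequence, the number of hairpins, the time after delivery or any selection of infected cells. Separate cultures are not stated for the replicates. The p-values therefore speak of the variation among these 6 libraries alone, and that variation may be technical.

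WNT proteins are secreted, lipid-modified ligands that bind frizzled receptors. With the co-receptors LRP5 or LRP6 they stop a cytoplasmic complex of APC, AXIN and kinases from destroying beta-catenin, which then acts with TCF/LEF factors on target genes. Other WNT signals run through the kinase-like receptors ROR1, ROR2 and RYK to cell polarity and movement. Several targets of the beta-catenin branch are themselves brakes, among them AXIN2, NKD1, NOTUM, DKK1, and the ligases RNF43 and ZNRF3, which remove frizzled receptors from the cell surface. RNF43 is among the genes mutated in pancreatic tumours.

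The promoters of DKK1 and FZD8 are shown because DKK1 was the most abundant secreted inhibitor, FZD8 was the frizzled gene that differed most, and each window held letters marked below. The FZD8 window held only TATAAA, letters chosen after the windows were seen. RefSeq promoter windows (GRCh38.p14) matched 40 of the 58 members, and the 250 bases upstream of each start were searched for the TCF/LEF letters CTTTGAA and CTTTGAT on either strand. They were present in 1 of 50 member windows (2.0%), that of DKK1, and in 5.94% of all 35116 windows. The letters TATAAA, a choice made after the windows were seen and read on the gene's own strand, were present in 2 of the 50 (4.0%) and in 6.8% of all. Capitals mark these letters. The DKK1 window lies at chr10:52314031-52314280 on the plus strand and holds CTTTGAA beginning 95 bases before the start and TATAAA beginning 30 bases before it. The FZD8 window lies at chr10:35642297-35642546 on the minus strand and holds TATAAA beginning 29 bases before the start.
DKK1: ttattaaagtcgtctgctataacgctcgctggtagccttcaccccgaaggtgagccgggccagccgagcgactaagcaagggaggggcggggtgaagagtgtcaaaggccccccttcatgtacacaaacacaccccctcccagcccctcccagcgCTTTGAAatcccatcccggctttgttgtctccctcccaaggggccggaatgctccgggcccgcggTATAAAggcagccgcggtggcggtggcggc
FZD8: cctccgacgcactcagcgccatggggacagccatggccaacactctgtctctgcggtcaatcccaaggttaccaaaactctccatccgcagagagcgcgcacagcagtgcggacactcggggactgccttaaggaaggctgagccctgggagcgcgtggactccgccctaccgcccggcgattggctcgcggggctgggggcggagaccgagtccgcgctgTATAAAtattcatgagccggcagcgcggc
A match is a description of the letters and says nothing of binding.

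Library totals ran from 15405884 to 19075734 counts. SHMT2, the targeted gene, stood at 146 ± 11.4 CPM (library-scaled counts, with TMM factors) in the control and 5.19 ± 1.74 CPM in the knockdown libraries (SD, n = 3), so the libraries labelled knockdown were the low ones. The 13 genes encoded in mitochondrial DNA took 10.4% of all counts of knockdown replicate 2, while the remaining knockdown libraries had 4.72% each and the controls 5.78% to 6.86%. The simple epithelial keratins KRT8 and KRT18 averaged 134 and 133 FPKM in the controls (fragments per kilobase of gene, scaled to library total), while the ductal gene CFTR was at 0 in every library. The summed FPKM of 10 epithelial and ductal markers was 293 to 367 in control and 394 to 542 in knockdown libraries, with 4 of 8 tested markers higher (KRT8, KRT19, CDH1 and MUC1) and 2 lower (EPCAM and SOX9). KRT19 had 3, 4 and 0 control counts against 1523, 900 and 1518, so it passed the filter through the knockdown libraries. So did CDH1, with 12, 9 and 23 control counts, and the endothelial gene KDR, with 4 in each control library. Fibroblast markers summed to 8.76 to 10.2 FPKM in control and 4.99 to 5.3 FPKM in knockdown libraries, with COL1A1 lower. Endothelial markers summed to 0.0722 to 0.137 and 0.972 to 1.21 FPKM, with KDR higher, and immune markers to 0.473 to 1.09 and 1.32 to 2.08 FPKM, with CD14 higher. Only 1 marker in each of these sets was tested, and the differences between the sums are largely those single genes. Control and knockdown means were 9.04 and 5.05 FPKM for COL1A1, 0.0394 and 1.01 FPKM for KDR and 0.703 and 1.49 FPKM for CD14. The part of these differences in the results below was not tested. The fibroblast genes COL1A2, DCN and FAP, the immune gene LYZ, the acinar genes PRSS1, CPA1, CELA3A and AMY2A and the endocrine genes INS and SST were at 0 throughout. In bulk RNA, fewer cells expressing a gene and less of its RNA per cell cannot be told apart.

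At a Benjamini-Hochberg adjusted p below 0.05 in edgeR's quasi-likelihood test, 12 members were higher and 10 lower in the knockdown libraries. Over all tested genes, 51.8% were called, 26.7% higher and 25.1% lower, so calls were frequent in this comparison. The groups did not overlap in 24 of the 35 tested members, against 61.4% of all tested genes. At least 2-fold changes among the calls were seen in 7 higher and 5 lower members, against 15.6% of all tested genes in either direction. The members' median log2 fold change was -0.05, against 0.00 for all tested genes, and their median size regardless of direction was 0.65, against 0.44. By role, 8 of 8 tested frizzled genes, 1 of 2 LRP co-receptors and 3 of 3 tyrosine kinase-like receptors were called, against 51.8% of all tested genes. FZD8 and ROR2 were lower, ROR1 and LGR4 higher, and 5 frizzled genes were higher by smaller amounts than ROR1.

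**Figure D1:**
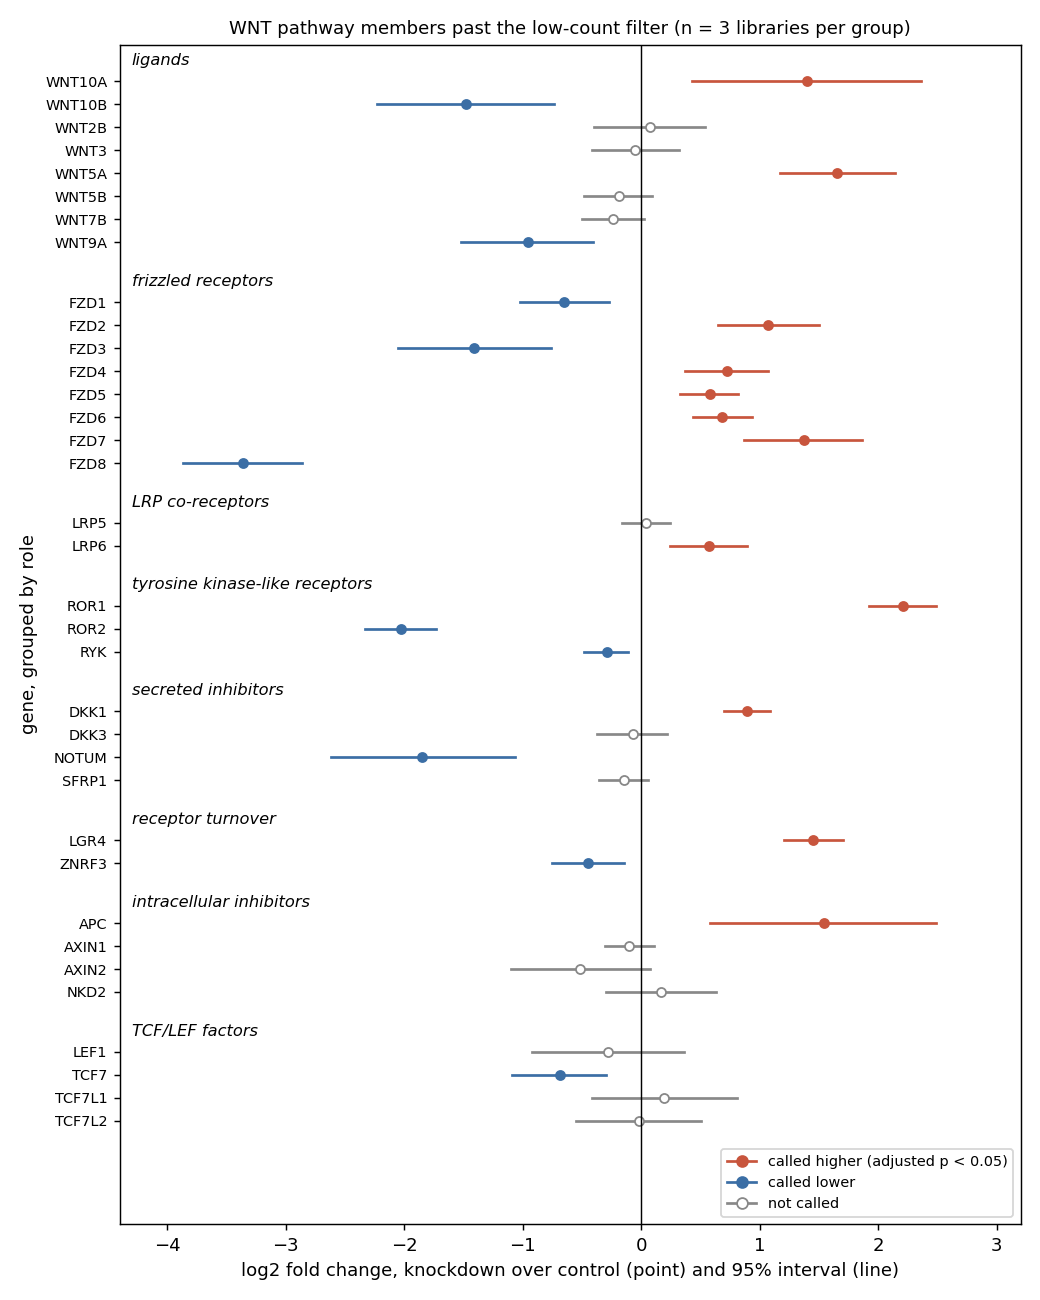
Log2 fold change of knockdown over control for the 35 tested members, grouped by role, with points for the estimate and lines for the 95% interval (3 libraries per group). Filled red points mark the 12 members called higher, filled blue points the 10 called lower and open grey points those not called. FZD8, at -3.36, lies farthest from 0.

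Of the 19 WNT ligand genes, 8 were tested, 2 of them called higher and 2 lower. WNT7B was the most abundant in both groups, with 55.2% of the ligands' mean summed FPKM in control and 56.6% in knockdown libraries. It stood at 98.6, 98.0 and 86.6 CPM in control replicates 1, 2 and 3 and at 74.9, 90.9 and 73.8 CPM in knockdown replicates 1, 2 and 3. The groups overlapped, and the log2 fold change of -0.24 (95% interval -0.50 to 0.02) was not called (edgeR adjusted p = 0.104). Without knockdown replicate 2, the library with the high mitochondrial share, WNT7B was called lower (log2 fold change -0.35, edgeR adjusted p = 0.0138).

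WNT5A, the prototype ligand of ROR receptors, lies on chromosome 3 (55465715 to 55490539, minus strand). It was at 1.95, 3.21 and 2.02 CPM in control replicates 1, 2 and 3 and at 7.45, 7.51 and 7.61 CPM in the knockdown replicates. All 3 knockdown libraries lay above all controls and within a narrow band. The fold was 3.15 (log2 fold change 1.65, SE 0.21, edgeR adjusted p = 0.000578). Its share of the ligands' summed FPKM was 0.844% to 1.24% in control and 3.68% to 3.87% in knockdown libraries, so it remained a minor transcript beside WNT7B.

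WNT10B, a ligand of the beta-catenin branch, fell from 2.77, 5.48 and 4.24 CPM in control replicates 1, 2 and 3 to 1.34, 1.10 and 1.97 CPM in knockdown replicates 1, 2 and 3. The control libraries varied, yet the lowest of them was above the highest knockdown library. Its log2 fold change was -1.48 (SE 0.32, edgeR adjusted p = 0.00631). WNT10A moved the other way, from 0.318 ± 0.163 to 0.849 ± 0.154 CPM (mean ± SD, n = 3), a log2 fold change of 1.40 (edgeR adjusted p = 0.0244). With only 6, 2 and 7 control counts, WNT10A passed the filter through its knockdown libraries. Its call was lost without control replicate 2 (edgeR adjusted p = 0.077), knockdown replicate 1 (0.0754) or knockdown replicate 3 (0.0678).

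WNT9A fell from 17.4 ± 3.89 to 8.88 ± 2.31 CPM (SD, n = 3), with 12.9, 19.0 and 20.1 CPM in control replicates 1, 2 and 3 against 9.94, 6.23 and 10.5 CPM in knockdown replicates 1, 2 and 3. Control replicate 1 lay nearest to the knockdown libraries, and the groups did not overlap (log2 fold change -0.96, SE 0.24, edgeR adjusted p = 0.0117). WNT5B, the paralog of WNT5A, stood at 24.6 ± 1.53 and 21.5 ± 2.65 CPM in groups that did not overlap, yet without a call (-0.19, 95% interval -0.48 to 0.09). WNT3 was at 9.39 ± 1.49 and 9.08 ± 0.891 CPM and WNT2B at 2.96 ± 0.373 and 3.12 ± 0.521 CPM, both without a call. The intervals were -0.42 to 0.32 for WNT3 and -0.40 to 0.54 for WNT2B. Of WNT2B's exon bases, 21.2% lie opposite exons of ST7L, and without a stated strand setting reads of both genes there cannot be told apart.

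The other 11 ligand genes had few reads. WNT2, WNT3A and WNT9B had 0 counts in every library, where 3 counts would correspond to 0.149 to 0.2 CPM. WNT16 had 4 counts over the controls and 15 over the knockdown libraries, WNT4 had 8 and 24, and WNT11 had 18 and 16. WNT8B had 9 and 10, WNT6 had 8 and 4, and WNT7A had 5 and 0. WNT1 had 1 and 0, and WNT8A had 3 and 0. These genes were too low for a comparison. Summed over all 19 genes, ligand FPKM was 31.6, 35.1 and 31.5 in control replicates 1, 2 and 3 and 28.6, 27.9 and 29 in knockdown replicates 1, 2 and 3.

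Frizzled receptors are the membrane proteins that bind WNT through a cysteine-rich domain. Of 10 genes, 8 were tested, 5 called higher and 3 lower, and in each of the 8 the groups did not overlap. Among all tested genes, 51.8% were called and 61.4% had groups that did not overlap. FZD8 (ENSG00000177283, chromosome 10, 35638247 to 35642296, minus strand, upstream sequence shown above) was at 15.3, 16.6 and 19.5 CPM in control replicates 1, 2 and 3 and at 1.14, 1.95 and 1.92 CPM in knockdown replicates 1, 2 and 3. Every knockdown library lay far below every control library. The level was 10.3-fold lower (log2 fold change -3.36, SE 0.22, edgeR adjusted p = 3.41e-05), from 243, 249 and 308 counts to 23, 32 and 37. FZD8 made up 13.6% to 18.6% of frizzled FPKM in control and 0.768% to 1.44% in knockdown libraries. The 50 tested genes nearest to FZD8 on the chromosome had a median log2 fold change of 0.56, the opposite direction.

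The frizzled genes called higher included FZD7, at 5.92, 6.81 and 7.15 CPM in control replicates 1, 2 and 3 and at 20.4, 12 and 18.8 CPM in knockdown replicates 1, 2 and 3. Knockdown replicate 2 was the lowest of its group but above every control (log2 fold change 1.37, SE 0.21, edgeR adjusted p = 0.00149). FZD2, its close relative, showed the same order, with 7.81, 6.21 and 8.42 CPM in the controls and 17.7, 12.4 and 17.1 CPM in the knockdown replicates (log2 fold change 1.07, SE 0.18, edgeR adjusted p = 0.00229). FZD1, the remaining relative of FZD2 and FZD7, went the other way, from 10.7 ± 1.29 to 6.86 ± 0.979 CPM (SD, n = 3). Its log2 fold change was -0.65 (SE 0.16, edgeR adjusted p = 0.0116).

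FZD6 was the most abundant frizzled gene per length in every library, with 47.0% to 51.8% of frizzled FPKM in control and 55.7% to 58.1% in knockdown libraries. Its level rose from 58.2, 46.8 and 49.4 CPM in control replicates 1, 2 and 3 to 83.3, 79.3 and 85.2 CPM in knockdown replicates 1, 2 and 3 (log2 fold change 0.68, SE 0.11, edgeR adjusted p = 0.00143). FZD5 rose from 16.6 ± 0.92 to 24.7 ± 1.73 CPM and FZD4 from 11.0 ± 1.86 to 18.1 ± 1.68 CPM (SD, n = 3), with log2 fold changes of 0.58 and 0.72. Of FZD4's exon bases, 18.9% lie opposite exons of PRSS23.

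FZD3 fell from 2.17 ± 0.249 to 0.822 ± 0.251 CPM (log2 fold change -1.41, SE 0.28, edgeR adjusted p = 0.00434), on 38, 33 and 30 control counts against 11, 17 and 17. It passed the filter through its control libraries, since knockdown replicate 1 lay below the cut-off. FZD3 lies on chromosome 8 among genes that were also lower: the 50 nearest tested genes had a median of -0.93. FZD9 had 10 counts over the controls and 27 over the knockdown libraries and was not tested, and FZD10 had 0 throughout. Summed frizzled FPKM was 27.0, 23.7 and 25 in control replicates 1, 2 and 3 and 38.8, 32.8 and 39.2 in knockdown replicates 1, 2 and 3. The sums did not overlap, and FZD6 supplied the larger part of the difference.

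**Figure D2:**
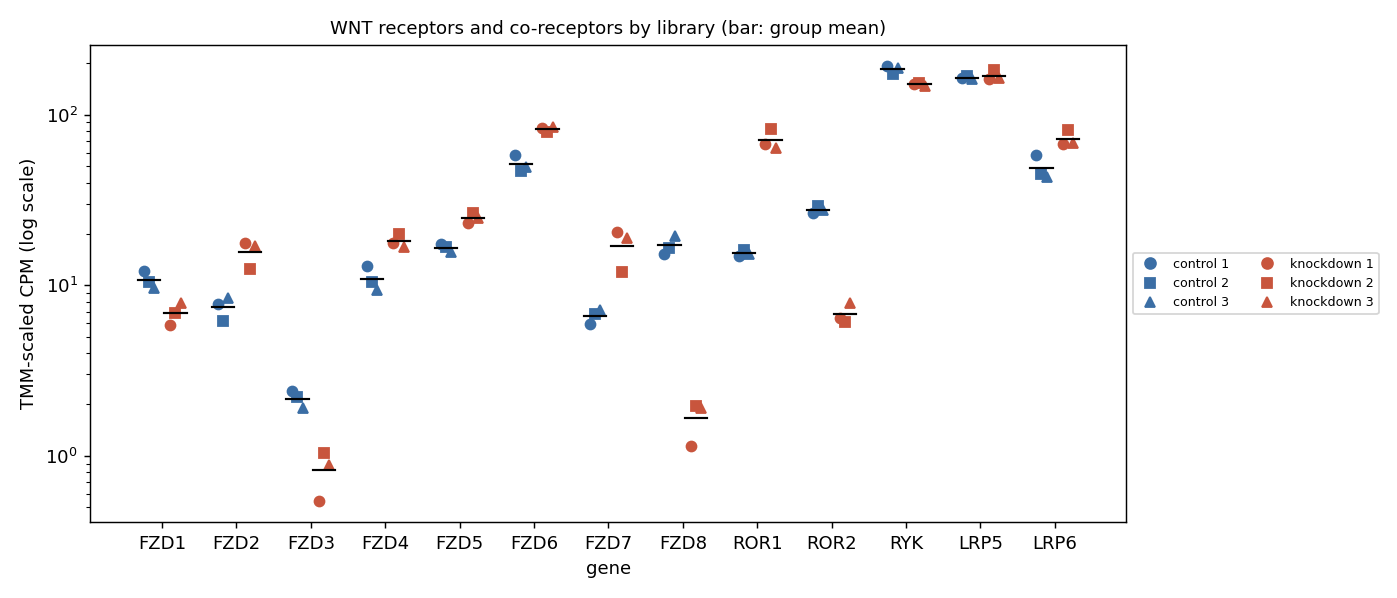
TMM-scaled CPM (log axis) of the tested receptors and co-receptors in each library, with blue for control, red for knockdown, a symbol for each replicate number and a bar for the group mean. FZD8 falls from 15.3 to 19.5 CPM in the controls to 1.14 to 1.95 CPM in the knockdown libraries, while ROR1 and ROR2 exchange their order.

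ROR1 and ROR2 are kinase-like receptors for WNT5A-type ligands, and in these cells they moved in opposite directions. ROR1 (ENSG00000185483, chromosome 1, 63774017 to 64181498, plus strand) was at 14.9, 16.0 and 15.3 CPM in control replicates 1, 2 and 3 and at 67.1, 82.4 and 63.7 CPM in knockdown replicates 1, 2 and 3. The controls were nearly equal and the lowest knockdown library lay well above them. The level was 4.61-fold higher (log2 fold change 2.21, SE 0.12, edgeR adjusted p = 1.82e-05). ROR2 (ENSG00000169071, chromosome 9, 91563091 to 91950228, minus strand) was at 26.6, 29.1 and 27.7 CPM in the controls and at 6.46, 6.05 and 7.87 CPM in knockdown replicates 1, 2 and 3. It was 4.08-fold lower (log2 fold change -2.03, SE 0.13, edgeR adjusted p = 3.41e-05). The 50 tested genes nearest to each had median log2 fold changes of 0.24 for ROR1 and -0.04 for ROR2.

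Per length, ROR2 exceeded ROR1 in each control library (4.41, 4.81 and 4.55 against 2.17, 2.31 and 2.20 FPKM) and ROR1 exceeded ROR2 in each knockdown library (10.5, 12 and 10 against 1.16, 1.01 and 1.41 FPKM). RYK, the third receptor of this kind, was the most abundant in both groups, with 74.4% to 77.7% of their summed FPKM in control and 58.7% to 62.5% in knockdown libraries. RYK was at 192, 174 and 188 CPM in control replicates 1, 2 and 3 and at 151, 154 and 147 CPM in the knockdown replicates (log2 fold change -0.29, SE 0.08, edgeR adjusted p = 0.0176). The groups did not overlap, but the RYK call was lost without control replicate 3 (edgeR adjusted p = 0.0727), knockdown replicate 1 (0.0699) or knockdown replicate 3 (0.0771), and when scaled by library size alone (0.064). The summed FPKM of the 3 receptors was 27.8 to 29.5 in control and 30.5 to 31.5 in knockdown libraries. FPKM carries no TMM factor. By limma on log2(FPKM + 1), the median log2 fold change of all tested genes was 0.05, against 0.00 with TMM factors. The part of this scaling in the small difference between the sums was not tested.

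LRP5 and LRP6 pair with frizzled receptors in the beta-catenin branch. LRP5, the more abundant, was at 163, 168 and 161 CPM in control replicates 1, 2 and 3 and at 161, 182 and 163 CPM in the knockdown replicates. Its log2 fold change of 0.04 had a 95% interval of -0.16 to 0.24, which leaves room for small changes either way. LRP6 rose from 58.2, 44.6 and 43.3 CPM to 67.1, 80.8 and 68.6 CPM (log2 fold change 0.57, SE 0.14, edgeR adjusted p = 0.0113). Control replicate 1 lay between the other controls and the knockdown libraries, and without control replicate 2 the LRP6 call was just lost (edgeR adjusted p = 0.0519).

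Control of receptor turnover runs through LGR4 to LGR6, which bind R-spondins and thereby hold off the ligases RNF43 and ZNRF3. LGR4 (ENSG00000205213, chromosome 11, 27365961 to 27472790, minus strand) was at 138, 112 and 116 CPM in control replicates 1, 2 and 3 and at 334, 352 and 312 CPM in knockdown replicates 1, 2 and 3. It was 2.73-fold higher (log2 fold change 1.45, SE 0.11, edgeR adjusted p = 6.28e-05), with every knockdown library above every control. The 50 nearest tested genes had a median of 0.54, in the same direction but smaller. LGR4 held 82.7% to 88.6% of the FPKM of these 5 genes in control and 95.4% to 95.6% in knockdown libraries.

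LGR5, the intestinal stem cell marker, had 0 counts in the controls and 2, 4 and 0 in knockdown replicates 1, 2 and 3, and LGR6 had 9 and 12 over the control and knockdown libraries. RNF43 had 1, 1 and 0 counts in the controls and 2, 3 and 6 in the knockdown replicates, too few to test, so ZNRF3 was the ligase transcript detected at a testable level. ZNRF3 was at 19.3, 25.1 and 22.5 CPM in control replicates 1, 2 and 3 and at 17.0, 17.0 and 15.1 CPM in the knockdown replicates (log2 fold change -0.45, SE 0.13, edgeR adjusted p = 0.0213). The ZNRF3 call was lost without control replicate 2 (edgeR adjusted p = 0.0859), control replicate 3 (0.0644) or knockdown replicate 3 (0.0739). The 50 tested genes nearest to ZNRF3 had a median log2 fold change of -0.37, close to its own value. The R-spondin genes RSPO1 to RSPO4 were all too low to test.

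Secreted inhibitors keep WNT from its receptors (SFRP and WIF proteins), block LRP6 (DKK1) or strip the lipid from WNT (NOTUM). Of 10 genes, 4 were tested, 1 called higher and 1 lower. DKK1 (ENSG00000107984, chromosome 10, 52314281 to 52318042, plus strand, upstream sequence shown above) was at 104, 109 and 111 CPM in control replicates 1, 2 and 3 and at 209, 188 and 204 CPM in the knockdown replicates. The groups were well apart, with a 1.86-fold rise (log2 fold change 0.89, SE 0.08, edgeR adjusted p = 0.000165). Per length it was the most abundant of all 58 members, at 47.3 ± 1.49 FPKM in control and 93.1 ± 8.9 FPKM in knockdown libraries (SD, n = 3). Of its exon bases, 9.61% lie opposite those of PRKG1-AS1.

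SFRP1, the second most abundant inhibitor per length, was at 87.5, 84.8 and 86.0 CPM in control replicates 1, 2 and 3 and at 73.3, 84.8 and 74.1 CPM in the knockdown replicates, with no call (-0.15, 95% interval -0.36 to 0.06). It was called lower without knockdown replicate 2 (log2 fold change -0.23, edgeR adjusted p = 0.0275). DKK3 stood at 41.4 ± 4.02 and 39.3 ± 5.27 CPM with no call (-0.07, 95% interval -0.37 to 0.22). NOTUM fell from 1.51, 1.14 and 1.65 CPM to 0.547, 0.305 and 0.311 CPM, on 24, 17 and 26 control counts against 11, 5 and 6 (log2 fold change -1.85, SE 0.33, edgeR adjusted p = 0.00285). It passed the filter through its control libraries, and the 50 tested genes nearest to it had a median of -0.73.

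SFRP5 had 15 counts over the controls and 5 over the knockdown libraries, SFRP4 had 4 and 4, and DKK4 had 1 and 5. DKK2, SFRP2 and WIF1 had 0 counts in every library. The inhibitors' summed FPKM was 67.4, 69.0 and 70.5 in control replicates 1, 2 and 3 and 120, 104 and 118 in knockdown replicates 1, 2 and 3, and DKK1 made up 68.5% and 82.0% of the 2 group means.

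**Figure D3:**
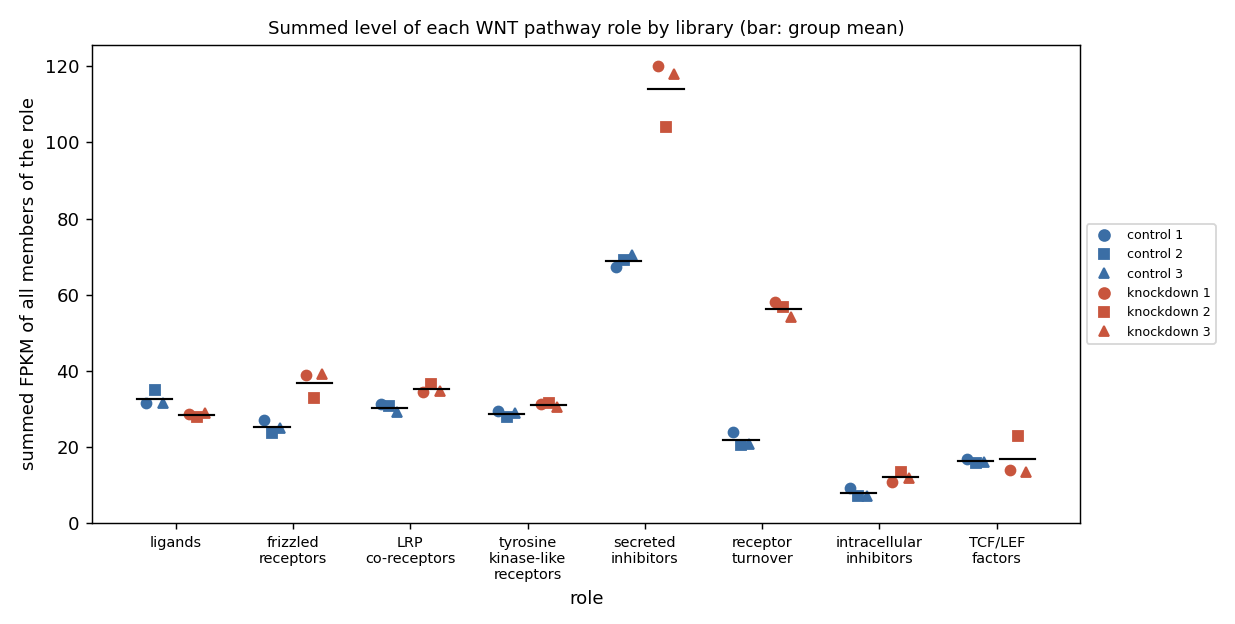
Summed FPKM (scaled to library total, without TMM factors) of all members of each role in each library. Blue marks control, red knockdown, a symbol each replicate number and a bar the group mean. Secreted inhibitors rise from 67.4 to 70.5 in the controls to 104 to 120 in the knockdown libraries, carried by DKK1, and receptor turnover genes from 20.6 to 23.9 to 54.2 to 58.1, carried by LGR4.

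Inside the cell, APC and AXIN1 are scaffolds of the complex that marks beta-catenin for destruction. APC was at 45.2, 16.0 and 16.1 CPM in control replicates 1, 2 and 3 and at 61.7, 98.0 and 65.3 CPM in knockdown replicates 1, 2 and 3. Control replicate 1 stood well above both other controls and knockdown replicate 2 above both other knockdown libraries, but the groups did not overlap (log2 fold change 1.54, SE 0.41, edgeR adjusted p = 0.0157). Without control replicate 1 the APC value was 2.22 (edgeR adjusted p = 0.000544), and it missed the threshold when control replicate 2 (1.28, adjusted p = 0.0538) or control replicate 3 (1.29, adjusted p = 0.0508) was left out. APC is long, at 12440 bases in the table, and the tenth of tested genes closest to it in length had a median of 0.27.

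AXIN1 was at 30.0 ± 0.596 CPM in control and 28.0 ± 1.18 CPM in knockdown libraries (SD, n = 3). Every control lay above every knockdown library, yet without a call (-0.10, 95% interval -0.31 to 0.11). AXIN2, the feedback paralog of AXIN1, was at 2.46, 3.34 and 3.67 CPM in control replicates 1, 2 and 3 and at 2.58, 1.59 and 2.38 CPM in the knockdown replicates. The AXIN2 groups overlapped, with a log2 fold change of -0.52 (95% interval -1.10 to 0.07, edgeR adjusted p = 0.12). AC004805.1 covers 25.2% of the AXIN2 exon bases on the same strand. NKD2, which binds Dishevelled, stood at 4.12 ± 0.39 and 4.63 ± 0.971 CPM with no call (0.17, 95% interval -0.30 to 0.63). NKD1, its paralog and a feedback target, had 9 counts in each group.

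TCF and LEF proteins carry beta-catenin to DNA. TCF7L2, the most abundant of the 4 per length, was at 77.5, 75.5 and 80.7 CPM in control replicates 1, 2 and 3 and at 62.0, 109 and 58.7 CPM in knockdown replicates 1, 2 and 3. Knockdown replicate 2 lay above every control and both other knockdown libraries below them, so the value of -0.02 (95% interval -0.55 to 0.50) averages libraries that disagree. Without knockdown replicate 2, TCF7L2 was called lower (log2 fold change -0.38, edgeR adjusted p = 0.00689). TCF7L1 showed the same pattern, with 17.0, 15 and 14.0 CPM in the controls and 12.9, 26.1 and 13.9 CPM in the knockdown replicates (0.19, 95% interval -0.42 to 0.81, and -0.20 without knockdown replicate 2, not called). The part of the high mitochondrial share of that library in these values was not tested.

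TCF7 fell from 16.8, 15.2 and 15 CPM in control replicates 1, 2 and 3 to 8.65, 12.2 and 8.29 CPM in the knockdown replicates (log2 fold change -0.69, SE 0.17, edgeR adjusted p = 0.0106). Knockdown replicate 2 was again the highest of its group but stayed below the controls. Smaller exon overlaps with other genes, 1.85% to 5.2% of exon bases, were found for FZD6, FZD8, APC, LEF1, TCF7 and TCF7L2. LEF1 was near 1 CPM in both groups, at 1.09 ± 0.131 and 0.902 ± 0.199 CPM, with no call (-0.28, 95% interval -0.92 to 0.36).

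**Figure D4:**
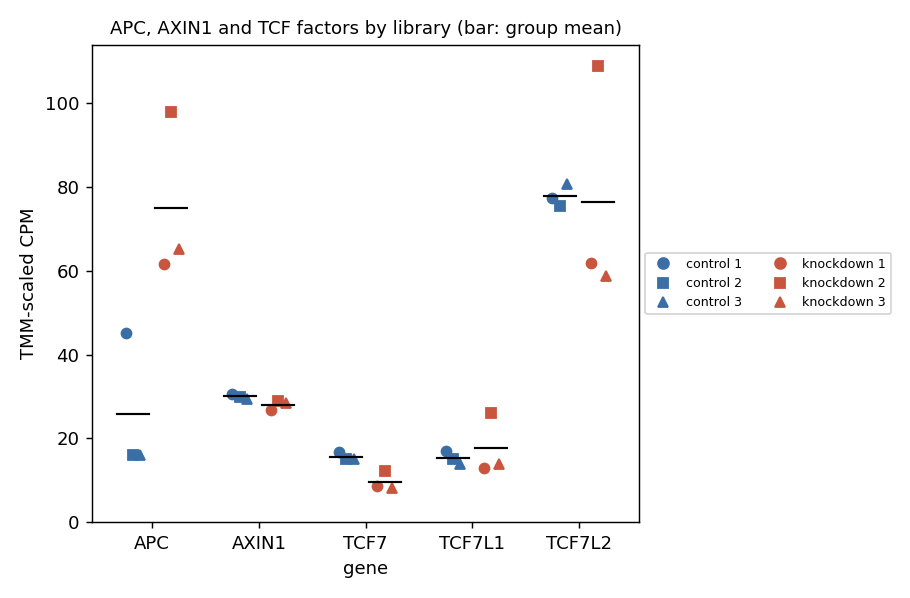
TMM-scaled CPM of APC, AXIN1 and the TCF genes in each library, with blue for control, red for knockdown, a symbol for each replicate number and a bar for the group mean. Control replicate 1 is apart for APC (45.2 CPM), and knockdown replicate 2 is apart for APC (98.0 CPM), TCF7L1 (26.1 CPM) and TCF7L2 (109 CPM).

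Other genes of the pathway were counted from 6 further lists, described by counts and medians only. Of 10 genes for WNT secretion and processing, 6 were tested, 5 were lower and 0 higher (median -1.27). That is 83.3% called, against 51.8% of all tested genes (26.7% higher and 25.1% lower). NOTUM, also counted among the members, and GPC4 passed the filter through their control libraries, where they were higher. The share, direction and median of this small list are therefore not independent of the filter. WLS, the carrier that brings WNT to the cell surface, fell from 132, 168 and 162 CPM in control replicates 1, 2 and 3 to 82.8, 62.4 and 87.5 CPM in the knockdown replicates (log2 fold change -0.99, SE 0.15, edgeR adjusted p = 0.0014). The glypican GPC6 changed by -1.49, the WNT-cleaving membrane protease TRABD2A by -1.27, and GPC4, named after its value was seen, by -1.27. With 11 counts in knockdown replicate 1, below the cut-off, GPC4 passed the filter through its control libraries. NOTUM, described above, is the fifth. PORCN, which attaches the lipid to WNT and was also named after its value was seen, had a value of -0.08 with no call.

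Of 18 R-spondins, co-receptors and further antagonists, 9 were tested, 1 was higher and 4 lower (median -0.51). The share called was 55.6%, against 51.8% of all tested genes. IGFBP4, an IGF-binding protein that also antagonises WNT, fell from 1102 ± 132 CPM to 351 ± 35.7 CPM (SD, n = 3). The DKK receptor KREMEN2 changed by -0.91 and the kinase-like co-receptor PTK7 by -0.51. RECK, which with ADGRA2 mediates WNT7 signals in brain endothelium, rose from 11.9 ± 1.31 to 25.2 ± 3.66 CPM.

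Of 27 destruction complex and transducer genes, 26 were tested, 6 were higher and 10 lower (median -0.06). The share called was 61.5%, against 51.8% of all tested genes. The transducer DVL1 fell from 226 ± 9.73 to 91.2 ± 14.8 CPM (log2 fold change -1.31), and the phosphatase scaffold PPP2R1A (-0.88) and the casein kinases CSNK1G2 (-0.77) and CSNK1A1 (-0.48) were also lower. CTNNB1, beta-catenin itself, named after its value was seen, was at 451, 474 and 460 CPM in control replicates 1, 2 and 3 and at 365, 282 and 353 CPM in the knockdown replicates (log2 fold change -0.47, SE 0.11, edgeR adjusted p = 0.00966). Its groups did not overlap. The kinase GSK3B, likewise named after its value was seen, changed by 0.55 (edgeR adjusted p = 0.0147), a call lost without control replicate 2 (adjusted p = 0.0564) and with the gene-length offset (0.26, adjusted p = 0.0631).

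Of 21 nuclear cofactors, 20 were tested, 2 were higher and 6 lower (median -0.06). The share called was 40.0%, against 51.8% of all tested genes. The corepressors TLE2 (-1.40), TLE4 (-1.05) and CTBP2 (-0.41) were lower and the corepressor subunit TBL1X (0.64) higher. The number called on this list was 5 when control replicate 2, knockdown replicate 1 or knockdown replicate 3 was left out, 4 when control replicate 3 was, 12 when knockdown replicate 2 was, and 14 when both control replicate 1 and knockdown replicate 2 were. The share called among all tested genes moved with these settings: 38.0% without control replicate 2, 42.4% without knockdown replicate 1, 43.9% without knockdown replicate 3, 38.4% without control replicate 3, 53.9% without knockdown replicate 2 and 73.6% with both left out.

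Of 30 genes of the planar polarity and calcium branch, 26 were tested, 10 were higher and 5 lower (median 0.02). The share called was 57.7%, against 51.8% of all tested genes. PRICKLE1, a core polarity protein, rose from 1.10 ± 0.529 to 9.81 ± 0.203 CPM (log2 fold change 3.16, SE 0.29, edgeR adjusted p = 0.000155), on 8, 19 and 24 control counts. PRICKLE1 passed the filter through its knockdown libraries, since control replicate 1 lay below the cut-off. MAPK8, the JNK1 kinase, changed by 0.72 and CAMK2G, a calcium-dependent kinase, by 0.89. Protein kinase C alpha, PRKCA, fell from 463 ± 24.4 to 198 ± 24.2 CPM (SD, n = 3).

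Of 40 entries for reported TCF targets (39 genes, 1 being listed under 2 names), 24 were tested, 6 were higher and 12 lower (median -0.44). That is 18 of 24 called, against 51.8% of all tested genes (26.7% higher and 25.1% lower). The receptor EPHB2 fell from 306 ± 2.52 to 79.3 ± 3.44 CPM, the cyclin CCND1 from 768 ± 29.9 to 387 ± 11.5 CPM and ID2 from 17.6 ± 2.57 to 1.39 ± 0.178 CPM (SD, n = 3). MYC, named after its value was seen, changed by -0.87. BMP4 had 10, 2 and 4 control counts and rose from 0.339 ± 0.259 to 9.56 ± 1.25 CPM, a log2 fold change of 4.78 that was 5.56 without control replicate 1. It passed the filter through its knockdown libraries. These genes respond to many inputs besides beta-catenin. Among the members that are feedback targets of the pathway, NOTUM, ZNRF3 and TCF7 were lower, DKK1 was higher, AXIN2 and LEF1 were not called, and LGR5, RNF43 and NKD1 were too low to test.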

How the data were processed

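TRIzol was used for RNA extraction and an NEBNext Ultra II kit for the libraries, per the labels' protocols. The deposited table holds raw read counts and FPKM for every gene and library, per the file headers. The table's counts, lengths and totals give the FPKM back. The sources used here name no aligner, counter, build, annotation or strand setting. Of the 58 members, 46 share a start or end with GENCODE 29 (GRCh38), and coordinates are as the table gives them. No column of another sample was present.

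Counts were tested with edgeR 4.0.16 (R 4.3.3) over the 12292 genes that passed filterByExpr, with TMM factors and a quasi-likelihood fit of knockdown against control without covariates. P-values were adjusted by Benjamini-Hochberg over all tested genes. Standard errors are the size of the log2 fold change divided by the square root of F, and 95% intervals from the matching t quantile. The biological coefficient of variation was 14.2%. CPM is TMM-scaled. FPKM, which carries no TMM factor, is used for levels between genes and for sums by role. On simulated counts for 12173 genes of this comparison, the test recovered 20.4% of the genes set to 1.5-fold, 82% at 2-fold and 100% at 4-fold, with 8 false among 157 calls. The simulation changed few genes, while 51.8% of tested genes were called in the data, so its adjusted p cut was stricter. Its recovery therefore does not measure power in the real comparison.

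Members and lists were chosen with earlier results of these data known. Every tested member is named. From each other list the text names up to 4 called members by adjusted p. Exon overlaps are from GENCODE 29. Neighbours are up to 50 tested genes around a member on its chromosome. Alternatives used DESeq2 1.42.0, limma 3.58.1 (voom, and log2(FPKM + 1) or log2(FPKM + 0.1)), other factors, filters and thresholds, the replicate number as a block, and libraries left out.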

Additional observations from a re-analysis of the deposited data

How the results depend on the processing

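No member changed its side of the threshold or its direction with upper-quartile or RLE factors, with no filter, by DESeq2 or by limma-voom. With 1 library left out, 9 to 12 members were called higher and 8 to 13 lower, and with control replicate 1 and knockdown replicate 2 both left out 12 and 13. Among all tested genes, 38.0% to 54.3% were called with 1 library left out and 73.6% with both left out, against 51.8% with all 6 libraries. At an adjusted p below 0.01 (33.9% of all tested genes), 9 members were higher and 5 lower. Called on the lists were 5 secretion, 5 antagonist, 9 destruction complex, 4 nuclear cofactor, 14 polarity and 16 target genes. With at least 2-fold change required at an adjusted p below 0.05 (15.6%), 7 members were higher and 5 lower. Called on the lists were then 4 secretion, 3 antagonist, 2 destruction complex, 2 nuclear cofactor, 8 polarity and 8 target genes. Of the nuclear cofactors, 4 to 12 were called with 1 library left out and 14 with both left out.

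No source used here says that the replicate numbers pair the libraries. Deviations from the group means correlated at -0.305, -0.282 and 0.303 for numbers 1, 2 and 3. With 3 libraries per group these deviations are not independent, so the correlations cannot decide on pairing. With the replicate block 12 members were higher and 9 lower (44.3% of all tested genes called), and not every library correlated best with its own number. The gene-length offset, chosen after seeing the data, gave 12 and 10, with 53.1% of all tested genes called. Called on the lists were then 5 secretion, 6 antagonist, 13 destruction complex, 12 nuclear cofactor, 19 polarity and 16 target genes. Without the offset these counts were 5, 5, 16, 8, 15 and 18. Also without it, the group of shortest tested genes (median 1793 bases) had a median log2 fold change of -0.28. The group of longest genes (median 15548 bases) had 0.27.

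Members without a call changed sign in some settings, and the cause was not tested. Over single libraries left out, values reached 0.21 for WNT2B (knockdown replicate 3), -0.18 for WNT3 (control replicate 1), 0.07 for LRP5 (knockdown replicate 1), -0.16 for DKK3 (knockdown replicate 3), 0.38 for TCF7L1 (knockdown replicate 1), -0.38 for TCF7L2 (knockdown replicate 2) and -0.21 for PORCN (control replicate 1). WNT2B was -0.03 without control replicate 3, -0.03 without knockdown replicate 2 and -0.12 with the length offset. WNT3 was 0.03 by library size, 0.03 and 0.04 by limma on FPKM with pseudocounts 1 and 0.1, 0.03 without control replicate 2, 0.02 without knockdown replicate 1 and 0.01 with the length offset. LRP5 was -0.03 without knockdown replicate 2 and -0.02 with both left out. DKK3 was 0.01 by library size, 0.00 by limma on FPKM with either pseudocount, 0.00 without control replicate 3 and 0.01 without knockdown replicate 2. TCF7L1 was -0.20 without knockdown replicate 2 and -0.11 with both left out. TCF7L2 was 0.04 by library size, 0.00 by limma on log2(FPKM + 1), 0.11 without knockdown replicate 1 and 0.14 without knockdown replicate 3. PORCN was 0.00 and 0.01 by limma on FPKM with pseudocounts 1 and 0.1 and 0.09 without control replicate 2. RYK lost its call by limma on log2(FPKM + 1) (-0.20, adjusted p = 0.0599) and with the replicate block (-0.29, adjusted p = 0.0674), and ZNRF3 by limma on log2(FPKM + 1) (-0.26, adjusted p = 0.0549). Depth limits the 16 members with reads below the filter.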

Other observations

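Further genes of the planar polarity branch, named after their values were seen, gave values in both directions. ROCK1, a kinase that acts downstream of RHOA, was at 105, 52.4 and 49.2 CPM in control replicates 1, 2 and 3 and at 163, 239 and 170 CPM in knockdown replicates 1, 2 and 3 (log2 fold change 1.47, edgeR adjusted p = 0.00525). Its paralog ROCK2 was at 88.1, 46.0 and 38.0 CPM in the controls and at 124, 149 and 130 CPM in the knockdown replicates (1.23, adjusted p = 0.00921). Control replicate 1 was the highest control for both, as it was for APC. The formin DAAM1, which links Dishevelled to RHOA, rose from 12.1 ± 3.16 to 28.5 ± 1.67 CPM (SD, n = 3). RHOA itself fell from 489 ± 83.8 to 293 ± 15.5 CPM (log2 fold change -0.74, edgeR adjusted p = 0.00293). PRICKLE3, a polarity protein related to PRICKLE1, rose from 7.57 ± 1.22 to 16.9 ± 4.58 CPM.

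Among reported TCF targets, also named after their values were seen, the intestinal factor CDX2 fell from 1.54 ± 0.176 to 0.323 ± 0.151 CPM and the secreted protein CCN5 rose from 7.80 ± 0.819 to 22.7 ± 2.94 CPM (SD, n = 3). Their log2 fold changes were -2.23 and 1.55 (edgeR adjusted p = 0.00173 and 0.000162). CDX2 had 26, 20 and 26 control counts against 9, 6 and 3 and passed the filter through its control libraries.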
